A study of Mus musculus with 6 samples.

Results

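The 10 genes described here encode proteins of the extracellular matrix: the collagen chains Col1a1, Col1a2, Col3a1, Col4a1, Col4a2, Col5a1, Col6a1, Col6a2 and Col14a1, and the collagen-binding protein Sparc. They were chosen by gene symbol from a table of 54532 genes, and each symbol matched 1 gene. They were selected on earlier results of the same comparison that is shown here, in which Col14a1 was among the clearest differences. The differences between groups in these genes are therefore given as a description, with standard errors and without p-values. Their calls in the test of all genes are only counted, beside the share over all genes.

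The RNA came from bone marrow cells picked with CD8 microbeads from mice of the hybrid strain CByB6F1, all females 2 to 5 months of age. All mice had immune bone marrow failure, a disease model in which T cells destroy the marrow's blood-forming cells. The mice of 3 libraries received ruxolitinib, an inhibitor of the cytokine-signalling kinases JAK1 and JAK2, and those of the 3 control libraries were untreated. Each library was a pool of cells from 2 to 3 mice of 1 group, and the pools were numbered 1 to 3 (ruxolitinib) and 4 to 6 (control). No healthy mice were among the groups, and the sources used here give neither dose nor length of treatment.

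Collagens are built from 3 polypeptide chains wound into a triple helix, in which glycine recurs along each chain as Gly-X-Y because no larger side chain fits the helix axis. Types I, III and V form the striated fibrils of connective tissue, type XIV binds to the fibril surface, type IV forms the sheet-like network of basement membranes, and type VI forms beaded filaments between fibrils and cells. Sparc binds collagen and calcium outside the cell. In bone marrow these proteins are known mainly as products of stromal cells, bone-forming cells and vessel walls rather than of T cells.

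The repeat is visible in the exons. Each sequence here is 1 complete exon of 54 bases from the principal transcript of a collagen member (the first such exon in which all 6 glycine codons fall every 9 bases), written 5′ to 3′ on the coding strand, with the glycine codons (GGN) in capitals. They are shown because this repeat is what the 9 collagens share and Sparc lacks.
Col1a1, exon 9, chr11:94940118-94940171 (+): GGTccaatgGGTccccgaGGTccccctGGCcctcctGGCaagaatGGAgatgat
Col1a2, exon 8, chr6:4515481-4515534 (+): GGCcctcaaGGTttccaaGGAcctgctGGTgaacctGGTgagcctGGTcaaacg
Col3a1, exon 6, chr1:45325360-45325413 (+): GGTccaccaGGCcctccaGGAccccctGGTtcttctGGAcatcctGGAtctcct
Col5a1, exon 16, chr2:27965597-27965650 (+): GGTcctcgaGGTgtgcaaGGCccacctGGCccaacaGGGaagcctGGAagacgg
Col14a1, exon 39, chr15:55472927-55472980 (+): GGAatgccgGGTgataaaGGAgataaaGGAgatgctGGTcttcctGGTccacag
Col4a1, exon 7, chr8:11245211-11245264 (-): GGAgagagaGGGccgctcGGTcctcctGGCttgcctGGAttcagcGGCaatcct
Col4a2, exon 17, chr8:11413979-11414032 (+): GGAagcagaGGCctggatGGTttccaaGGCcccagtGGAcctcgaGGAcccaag
Col6a1, exon 9, chr10:76719623-76719676 (-): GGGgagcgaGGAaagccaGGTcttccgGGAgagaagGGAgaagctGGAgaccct
Col6a2, exon 6, chr10:76611948-76612001 (-): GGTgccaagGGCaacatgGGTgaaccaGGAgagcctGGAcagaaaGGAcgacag

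Coordinates are on mm10, and the sequences are those of GENCODE release M21. The fibril-forming genes were set apart from the others by how many exons of 54 bases they hold, whatever their glycine codons. Of the interior coding exons, 21 of 49 were 54 bases long in Col1a1, 24 of 50 in Col1a2, 24 of 49 in Col3a1 and 29 of 64 in Col5a1. The other collagens had 1 (Col4a2), 2 (Col4a1 and Col6a2), 3 (Col6a1) and 4 (Col14a1), Sparc had 0, and the share over all protein-coding genes was 0.726%. Exons of any length divisible by 9 bases, which keep whole Gly-X-Y triplets, made up 87.8% in Col1a1, 90.0% in Col1a2 and 40.0% in Col4a1. In Col14a1, whose triple-helical part is short and interrupted, they made up 28.9%, against 14.3% over all protein-coding genes and 0 of 7 exons in Sparc.

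The libraries held 13829808 to 17708196 counted reads. The CD8 microbead label was checked against 17 genes of CD8 T cells: all were detected, but their summed level was 1905 to 5469 CPM in the ruxolitinib pools and 10591 to 13008 CPM in controls, with 15 of 17 lower in edgeR's test. Haemoglobin genes held 13.4 to 22.6% of the counts in the ruxolitinib pools and 0.178 to 0.258% in controls. Expression levels are in CPM, reads of a gene scaled by the library total and edgeR's TMM factor. Of 13480 genes that passed the filter on low counts, edgeR called 29.9% higher and 25.3% lower with ruxolitinib (quasi-likelihood test, Benjamini-Hochberg adjusted p under 0.05). Scaling each library to the CD8 T cell genes instead gave 9357 higher and 65 lower, and moved the median log2 fold change of all genes from 0.03 to 1.99.

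All 10 matrix genes were far more abundant in the ruxolitinib pools. Together they held 2098, 2336 and 1917 counts there (pools 1 to 3) against 88, 58 and 45 in the control pools 4 to 6, or 0.0137 to 0.0169% of a library against 0.000270 to 0.000497%. Each of the 10 was called higher, beside the 29.9% of all tested genes, and in each the lowest ruxolitinib pool lay above the highest control pool, beside 35.7% of all tested genes. Nothing is read from these counts, since the comparison was used to choose the genes and all 10 passed the filter through the ruxolitinib pools alone. Their median log2 fold change was 4.59 (4.57 with Col3a1 set against an assumed floor of 3 control counts), beside 0.03 over all genes tested. In bulk RNA, more cells that make a transcript and more of it per cell cannot be told apart.

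**Figure D1:**
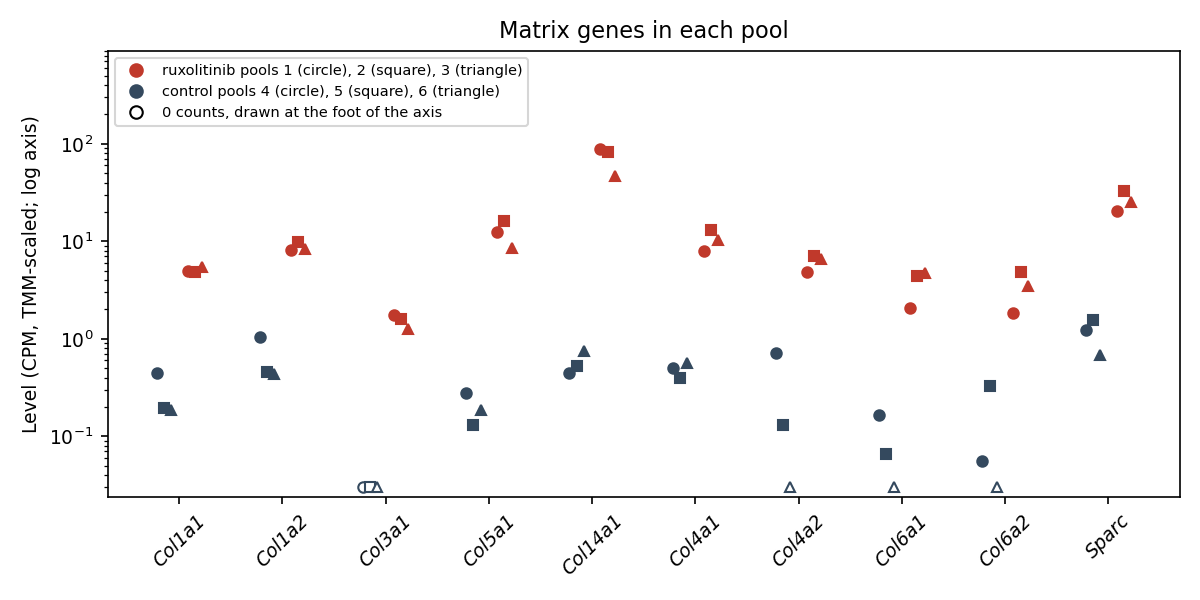
Level of each matrix gene in every pool, in CPM on a log axis; red symbols are ruxolitinib pools, dark symbols control pools, and open symbols mark 0 counts. In all 10 genes the ruxolitinib pools lie above the control pools, from 47.3 to 89.3 CPM for Col14a1 down to 1.26 to 1.76 CPM for Col3a1.

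Among the fibril-forming collagens, the type I chains had the smallest coefficients of variation across the ruxolitinib pools, with counting error not removed. Col1a1, the main chain of type I collagen, was at 4.98, 4.87 and 5.44 CPM in ruxolitinib pools 1 to 3 and at 0.443, 0.196 and 0.187 CPM in control pools 4 to 6. The ruxolitinib pools differed by 5.94% (coefficient of variation) and lay well clear of the controls, for a log2 fold change of 4.15 ± 0.48 (SE). Col1a2, its partner in the type I heterotrimer, was at 8.05, 9.73 and 8.28 CPM against 1.05, 0.458 and 0.436 CPM. Control pool 4 was the highest control for both chains, and the log2 fold change of Col1a2 was 3.71 ± 0.43, the smallest of the 10.

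Col3a1, the single chain of type III collagen of soft tissues and vessels, had 24, 21 and 20 counts in the ruxolitinib pools (1.76, 1.60 and 1.26 CPM) and 0 in all 3 control pools. Against a floor of 3 counts over the control group it was at least 25.1-fold higher. Col5a1, a chain of the type V collagen that starts fibrils and limits their width, was at 12.4, 16.1 and 8.47 CPM against 0.277, 0.131 and 0.187 CPM. Its log2 fold change was 5.88 ± 0.46, and the highest control held 5 counts. Of the exonic bases of Col3a1 1.44% and of Col5a1 2.50% overlap other annotated genes, so a small part of their counts could belong to those.

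Col14a1, the fibril-associated type XIV collagen found where fibrils are densely packed, drew the most counts of the 10 and is the gene named in the rule that chose them. It was at 89.3, 83.2 and 47.3 CPM in the ruxolitinib pools (1220, 1094 and 748 counts) and at 0.443, 0.523 and 0.748 CPM in controls (8, 8 and 12 counts). The lowest ruxolitinib pool, pool 3, was 63.2-fold above the highest control. The log2 fold change was 6.99 ± 0.38. It supplied 58.2, 46.8 and 39.0% of the counts of the 10 genes in ruxolitinib pools 1 to 3, and 9.09, 13.8 and 26.7% in controls. Without it, the other 9 genes summed to 64.2, 94.4 and 73.9 CPM in the ruxolitinib pools and to 4.43, 3.27 and 2.06 CPM in controls.

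The type IV chains Col4a1 and Col4a2, which twist together into the basement membrane network, are neighbours on chromosome 8 that are transcribed away from each other. Their annotated 5′ ends overlap by 22 bases (Col4a1 at 11198423 to 11312826, minus strand; Col4a2 at 11312805 to 11449287, plus strand), and reads within the overlap cannot be assigned without strand information. Col4a1 was at 7.90, 12.9 and 10.4 CPM with ruxolitinib and at 0.498, 0.393 and 0.561 CPM in controls, a log2 fold change of 4.40 ± 0.39. Col4a2 was at 4.83, 7.07 and 6.64 CPM against 0.720, 0.131 and 0 CPM. Both were lowest in ruxolitinib pool 1 and highest in pool 2. The Col4a2 controls were uneven, with 13, 2 and 0 counts, and its log2 fold change of 4.35 ± 0.77 became 6.42 without control pool 4 and 3.77 without control pool 6.

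Col6a1 and Col6a2, chains of the beaded filaments of type VI collagen that link cells to the surrounding fibrils, varied most between the ruxolitinib pools. Col6a1 was at 2.05, 4.41 and 4.74 CPM against 0.166, 0.0654 and 0 CPM in controls, a log2 fold change of 5.41 ± 0.76. Col6a2 was at 1.83, 4.79 and 3.48 CPM against 0.0554, 0.327 and 0 CPM, a log2 fold change of 4.68 ± 0.83. Pool 1 was the lowest for both, and the coefficients of variation were 39.3 and 44.1%. The control counts were 3, 1 and 0 for Col6a1 and 1, 5 and 0 for Col6a2, so these fold changes rest on few reads. They became 6.54 for Col6a1 without control pool 4 and 6.50 for Col6a2 without control pool 5.

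Sparc, which guides collagen assembly outside the cell, drew the next most counts. It was at 20.5, 32.9 and 25.2 CPM in the ruxolitinib pools and at 1.22, 1.57 and 0.685 CPM in controls, a log2 fold change of 4.49 ± 0.36. Its control pools held 22, 24 and 11 counts. The gene lies on chromosome 11 at 55394500 to 55423183, on the minus strand. The 57 counts of the control group have an exact 95% Poisson interval of 43.2 to 73.9, and the 28 of Col14a1 one of 18.6 to 40.5 (counting error only).

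Levels of different genes were compared per kilobase of gene length, in the ruxolitinib pools. With the deposited gene length, Col14a1 came first at 10.4 ± 3.24 CPM per kilobase (SD, n = 3) and Sparc next at 6.92 ± 1.66. Col5a1 (1.45 ± 0.450) and Col4a1 (1.39 ± 0.336) followed far below, then Col4a2 (0.934 ± 0.180), Col6a1 (0.852 ± 0.335), Col1a1 (0.776 ± 0.0461) and Col1a2 (0.699 ± 0.0734). Col6a2 (0.404 ± 0.178) and Col3a1 (0.157 ± 0.0256) were the lowest. Among neighbours in this order, the ranges over pools did not overlap between Sparc and Col5a1, Col1a2 and Col6a2, and Col6a2 and Col3a1, and overlapped in all other pairs.

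The order within type I collagen depended on which length was used. The deposited length of Col1a2, 12426 bases, spans all annotated exons, while its principal transcript has 5348 bases. With principal transcript lengths Col1a2 moved from place 8 to place 3, at 1.62 ± 0.170 CPM per kilobase. The ratio of Col1a1 to Col1a2 per kilobase was 1.12 ± 0.154 with the deposited length and 0.533 ± 0.0736 with the principal transcript, and that of Col6a1 to Col6a2 went from 2.16 ± 0.422 to 1.09 ± 0.214. The ratio of Col4a1 to Col4a2 moved less, from 1.49 ± 0.122 to 1.63 ± 0.134.

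**Figure D2:**
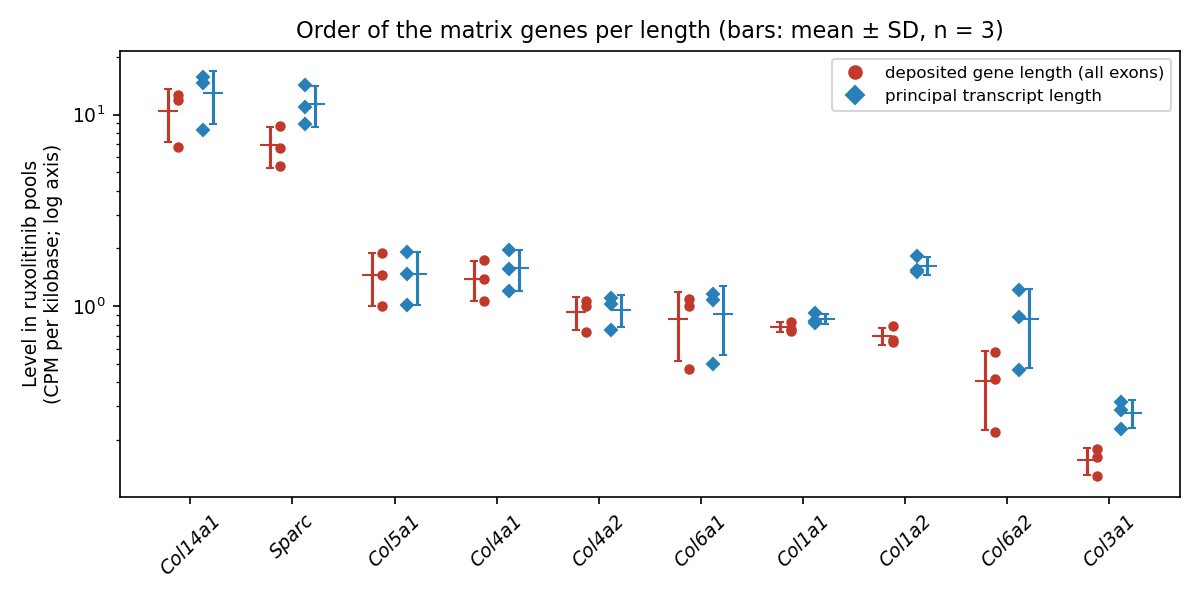
Level of each matrix gene in the 3 ruxolitinib pools, in CPM per kilobase on a log axis, with the deposited gene length (red circles) or the principal transcript length (blue diamonds); bars are mean ± SD. Col14a1 and Sparc are highest and Col3a1 lowest with either length, and Col1a2 moves from place 8 to place 3.

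The 10 genes differed in which ruxolitinib pool was lowest. Col3a1, Col5a1 and Col14a1 were lowest in pool 3, and Col1a1 was lowest in pool 2. Col4a1, Col4a2, Col6a1, Col6a2, Sparc and Col1a2 were lowest in pool 1. Some gaps were small, with 24, 21 and 20 counts in pools 1 to 3 for Col3a1 and 68, 64 and 86 for Col1a1. Col1a2 was at 8.05 CPM in pool 1 and 8.28 CPM in pool 3. Whether these gaps exceed counting error was not tested. The gap between highest and lowest pool on the log2 scale ran from 0.16 for Col1a1 to 1.37 for Col6a2. Over all 6 libraries, with each gene's log2 CPM centred on its own mean, Col1a1 and Col1a2 were the most alike pair (root mean square difference 0.22 on the log2 scale) and Col4a2 and Col14a1 the least alike (1.77). Chains of type IV were no close pair in this measure (1.44), in which the uneven Col4a2 controls enter.

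Markers of several other cell types moved with the groups. The counts of called genes given here stand beside 29.9% higher and 25.3% lower over all genes tested. Stromal cell genes (8 of 8 tested higher of 10 listed, Pdgfra and Ebf3 at 0 in controls) summed to 336 to 515 CPM with ruxolitinib and 52.6 to 95.6 CPM in controls, and included Cxcl12, a chemokine that holds blood stem cells in the marrow (log2 fold change 3.84 ± 0.27, adjusted p = 1.66e-05). Endothelial genes (6 of 10 tested higher of 12 listed, Emcn and Tek at 0 in controls) summed to 162 to 231 CPM against 54.4 to 59.3 CPM, among them the sinusoidal receptor Stab2 (3.66 ± 0.28, adjusted p = 2.18e-05). Osteoblast genes were split, with 3 higher and 1 lower of 5 tested of 10 listed, and Bglap, Bglap2, Sp7 and Dmp1 at 0 in controls. Their sums were 76.6 to 114 CPM against 121 to 230 CPM. These sums mainly follow Spp1 (mean 58.9 against 141 CPM) and Runx2 (27.6 against 44.3 CPM), not the list as a whole. Most of the stromal sum likewise came from Lpl (308 against 55.6 CPM). Megakaryocyte and platelet genes had 4 of 6 tested higher of 8 listed, with sums of 34.5 to 63.5 CPM against 21.5 to 51.6 CPM, which overlap. Macrophage genes (10 of 10 higher) summed to 8296 to 13772 CPM against 1102 to 1498 CPM, and red cell genes (9 of 9 tested higher of 10 listed) to 101869 to 183623 CPM against 1599 to 2319 CPM. The other most abundant genes of these lists were Lpl (stromal, 2.47 ± 0.32, adjusted p = 0.000246), Eng (endothelial, 1.99 ± 0.28, adjusted p = 0.000394), Gp9 (megakaryocyte, 1.74 ± 0.43, adjusted p = 0.00733), Lyz2 and Hmox1 (macrophage, 3.43 ± 0.44 and 4.42 ± 0.35) and Hba-a1 and Hbb-bs (red cell, 6.48 ± 0.50 and 6.03 ± 0.51), all higher. Spp1 was lower (osteoblast, -1.26 ± 0.32, adjusted p = 0.00852), as were the T cell receptor genes Trbc2 (-2.55 ± 0.40) and Trbc1 (-2.02 ± 0.54), and Runx2 (-0.68 ± 0.27) and Pf4 (-0.63 ± 0.46) were not called. Of the genes tested, 5 of 8 stromal, 5 of 10 endothelial, 2 of 5 osteoblast, 1 of 6 megakaryocyte and 1 of 9 red cell genes passed the filter through the ruxolitinib pools alone. Over all genes tested, 1621 of 13480 did so. The part of these cells in the levels of the matrix genes was not tested.

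**Figure D3:**
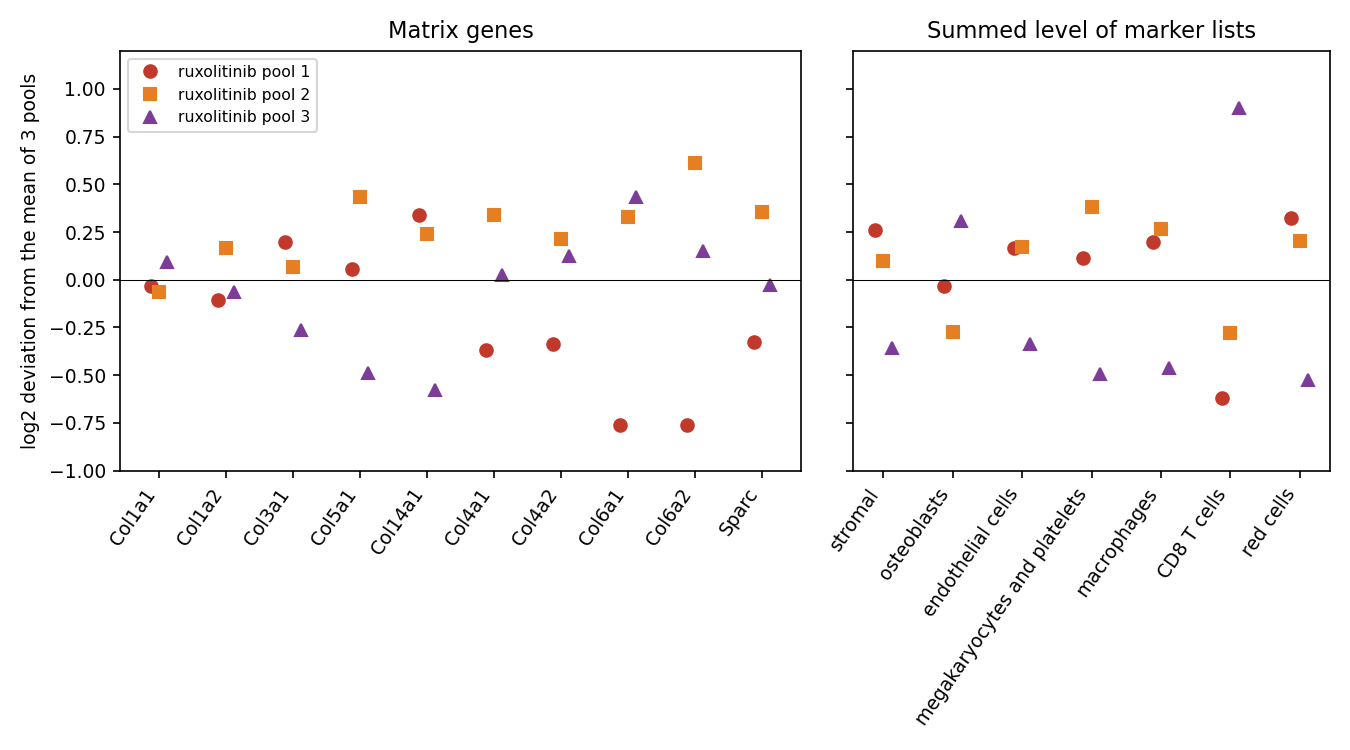
Deviation of each ruxolitinib pool from the mean of the 3 pools, on the log2 scale, for the 10 matrix genes (left) and the summed CPM of each marker list (right); symbols are pools. Col14a1, Col5a1 and Col3a1 are lowest in pool 3, Col3a1 on 20 to 24 counts per pool. The stromal, endothelial, megakaryocyte, macrophage and red cell sums are also lowest there. The type IV and type VI chains and the CD8 T cell sum are lowest in pool 1, and the osteoblast sum in pool 2.

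Among the genes most alike in pattern to the mean of the 10, by root mean square difference of centred log2 CPM over 6 libraries, were Car3 (0.23), Tle1 (0.24), Gadd45a, Lmna, Apol11b, Pcyt1a and St5 (0.32). Car3 encodes a carbonic anhydrase and Lmna the A-type nuclear lamins. Taken for Col14a1 alone, a choice made after the values were seen, the nearest were Ntn4 (0.22), which encodes a laminin-related basement membrane netrin, Dusp8, Il1r1, Prokr1, Bmp2, Mfsd2b, Hba-a1 and Thbd (0.31). Ntn4, Il1r1, Prokr1, Bmp2 and Thbd were at 0 counts in all controls, where likeness rests on the ruxolitinib pools and the prior count of 0.5.

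The machinery around collagen was described with 7 lists. Of all 13480 genes tested, 29.9% were called higher and 25.3% lower, and 1621 passed the filter through the ruxolitinib pools alone. Genes that passed that way were tested because of their level with ruxolitinib, so their adjusted p is no independent support for a rise. Among the genes named below these are Col5a3, Col8a1, P3h3, Bmp1, Loxl3, Fn1, Tnc, Nid2, Hspg2 and Ctsk. Of 35 other collagen genes, 6 were tested, of which 5 rose, 0 fell and 1 was not called (Col23a1, -0.37 ± 0.94); 6 had no count in any library, and 4 of those tested passed the filter through the ruxolitinib pools alone. Col11a2, a fibril-forming chain of cartilage, rose by 2.14 ± 0.35 on the log2 scale (adjusted p = 0.000791), from 1.59 ± 0.344 to 7.07 ± 1.38 CPM. Col5a3, a type V chain, rose by 3.29 ± 0.60 (adjusted p = 0.00142), and Col8a1, a network-forming chain of vessels, by 3.32 ± 0.71 (adjusted p = 0.00341; 2.70 without ruxolitinib pool 2). Counts in control pools 4 to 6 were low, at 3, 1 and 4 for Col5a3 and 1, 4 and 4 for Col8a1. The tested median was 2.42. The 35 genes together summed to 17.1 to 23.6 CPM with ruxolitinib and 5.48 to 6.53 CPM in controls.

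Enzymes that modify and fold new collagen chains in the endoplasmic reticulum were split with TMM scaling: of 15 tested, 7 rose, 2 fell and 6 were not called, with a median of 0.32. Scaled to the CD8 T cell genes, 13 were called higher. Of the 15, 3 passed the filter through the ruxolitinib pools alone, among them P3h3 (3, 1 and 5 counts in control pools 4 to 6). Plod1, a lysyl hydroxylase, rose by 3.02 ± 0.31 (adjusted p = 7.76e-05), P3h3, of the prolyl 3-hydroxylase family, by 4.83 ± 0.56 (adjusted p = 0.000133), and Colgalt1, which adds galactose to hydroxylysine, by 1.83 ± 0.26 (adjusted p = 0.000353). P4hb, the disulphide isomerase that is also the small subunit of prolyl 4-hydroxylase, fell by 0.63 ± 0.20 (adjusted p = 0.0253), from 373 ± 40.3 to 242 ± 4.83 CPM, and Plod2, another lysyl hydroxylase, fell by 1.45 ± 0.45 (adjusted p = 0.0202). P4hb missed the threshold without ruxolitinib pool 1 or 2 or control pool 4 or 5, at log2 fold changes of -0.60, -0.64, -0.65 and -0.68. Plod2 missed it without ruxolitinib pool 1 (-1.12) or 2 (-1.23) and was -2.19 without pool 3. Both turned positive when libraries were scaled to the CD8 T cell genes.

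Genes that trim and cross-link secreted collagen had 7 higher, 1 lower and 1 not called of 9 tested (median 3.59; 6 of the 9 passed through the ruxolitinib pools alone). Tgm2, a transglutaminase, was at 126, 143 and 95.4 CPM in the ruxolitinib pools and at 17.9, 11.8 and 12.2 CPM in controls, a rise of 3.12 ± 0.26 (adjusted p = 2.59e-05). Bmp1, the procollagen C-proteinase, rose by 5.23 ± 0.69 (adjusted p = 0.000275) and Loxl3, a lysyl oxidase that forms cross-links, by 3.59 ± 0.56 (adjusted p = 0.00062; 4.40 without control pool 4). Few control reads lie behind these rises, with 3, 3 and 0 counts in control pools 4 to 6 for Bmp1 and 13, 4 and 3 for Loxl3. Adamts14, a procollagen N-proteinase, fell by 1.35 ± 0.36 (adjusted p = 0.0105). This call was lost without ruxolitinib pool 1 (-1.15, adjusted p = 0.0710), and the sign turned under CD8 T cell scaling.

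Proteins that bind fibrils or shape cell contact with them had 10 of 11 tested genes higher and 0 lower. The median was 4.97 (4.60 with genes at 0 in controls set against an assumed floor of 3 control counts). Of the 11, 9 passed through the ruxolitinib pools alone. Bgn, the proteoglycan biglycan, rose from 1.39 ± 0.192 to 16.2 ± 2.34 CPM (3.53 ± 0.29, adjusted p = 2.59e-05). Fn1, fibronectin, rose from 0.367 ± 0.312 to 30.4 ± 11.4 CPM (6.29 ± 0.52, adjusted p = 2.59e-05; 7.26 without control pool 4), and Tnc, tenascin C, by 5.72 ± 0.67 (adjusted p = 0.000148). In control pools 4 to 6, Fn1 had 13, 2 and 4 counts and Tnc 2, 2 and 0, so these rises rest on few control reads. Thbs1, thrombospondin 1, differed widely among the ruxolitinib pools at 133, 51.5 and 24.1 CPM, against 0.997, 0.785 and 3.74 CPM in controls. It rose by 5.24 ± 0.76 (adjusted p = 0.000431; 4.35 without ruxolitinib pool 1 and 6.25 without control pool 6).

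The partners of type IV collagen in basement membranes gave 6 higher, 1 lower and 1 not called of 8 tested (median 3.88; 5 of the 8 through the ruxolitinib pools alone). Nid2, a nidogen that joins laminin to type IV collagen, rose by 5.73 ± 0.70 (adjusted p = 0.000188; 7.54 without control pool 5), Hspg2, perlecan, by 6.09 ± 0.79 (adjusted p = 0.000248; 9.10 without control pool 4) and Agrn, agrin, by 3.12 ± 0.45 (adjusted p = 0.000405). Counts in control pools 4 to 6 were 1, 5 and 0 for Nid2 and 3, 0 and 0 for Hspg2, so these fold changes rest on few reads. Lamc1, the common laminin gamma chain, went the other way, from 21.7 ± 4.90 to 11.5 ± 4.25 CPM (-0.91 ± 0.31, adjusted p = 0.0322). It missed the threshold without ruxolitinib pool 1 or 2 or control pool 4 or 5, at log2 fold changes of -0.84, -0.67, -0.83 and -0.75, and was 0.95 under CD8 T cell scaling.

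Collagen receptors and the proteases that take collagen apart had 11 of 16 tested higher, 0 lower and 5 not called (median 3.01; 7 of the 16 through the ruxolitinib pools alone). Timp2, an inhibitor of matrix metalloproteinases, rose from 12.2 ± 3.21 to 183 ± 43.1 CPM (3.91 ± 0.29, adjusted p = 2.04e-05). Ctsk, the collagen-degrading protease of osteoclasts, rose by 5.84 ± 0.65 (adjusted p = 0.000108) and by 6.50 without control pool 5. It had only 3, 4 and 0 counts in control pools 4 to 6. Mmp9, a gelatinase that neutrophils and osteoclasts also make, rose from 17.8 ± 14.2 to 468 ± 222 CPM (4.71 ± 0.62, adjusted p = 0.00026; 5.58 without control pool 4).

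The list for TGF-beta, a cytokine that raises collagen transcription in fibroblasts, had 7 higher, 0 lower and 7 not called of 14 tested, with a median of 0.98 (5 of the 14 through the ruxolitinib pools alone). Scaled to the CD8 T cell genes, 13 were called higher. The receptor genes Tgfbr1 (1.89 ± 0.29, adjusted p = 0.000608) and Tgfbr2 (1.03 ± 0.20, adjusted p = 0.00175) rose.

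**Figure D4:**
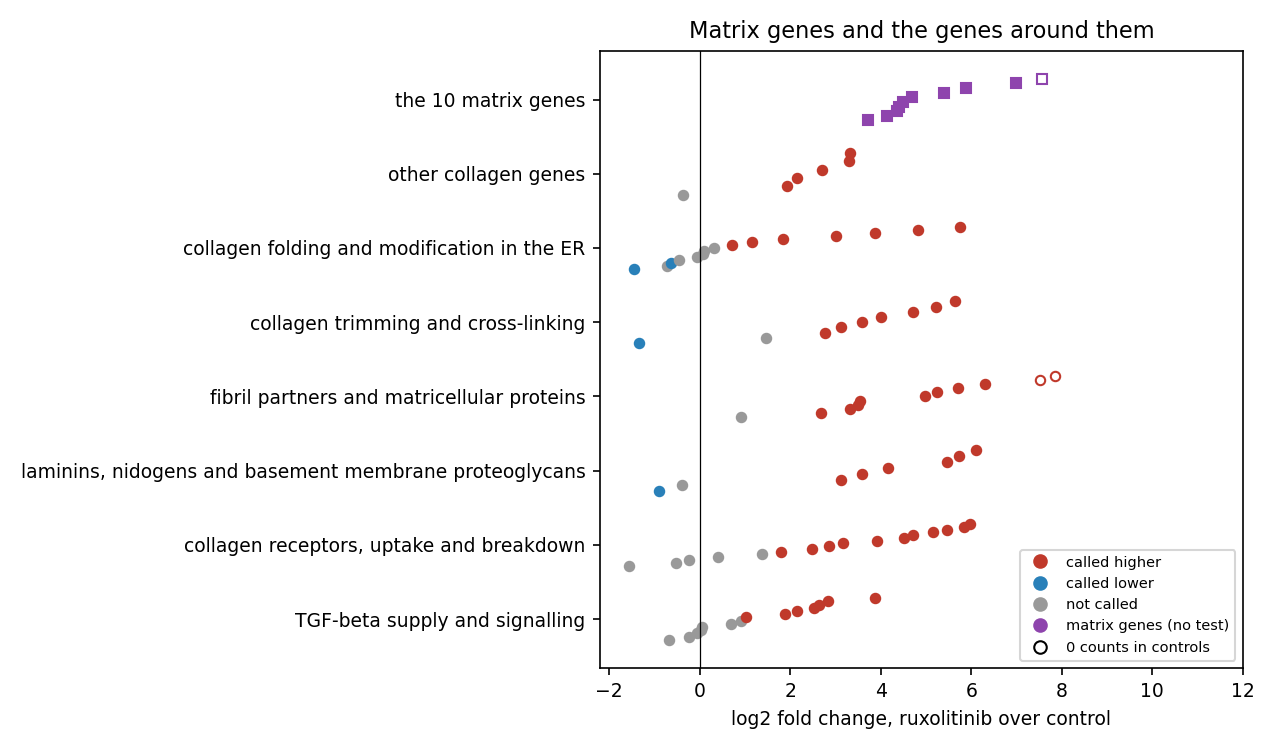
Log2 fold change (ruxolitinib over control) of each tested gene of the 10 matrix genes, shown without their calls, and of the 7 surrounding lists. Red is called higher, blue called lower, grey not called, and open symbols mark genes with 0 counts in all controls. The matrix genes with counts in controls lie between 3.71 and 6.99, while the endoplasmic reticulum and TGF-beta lists straddle 0. The lists of other collagens, trimming and cross-linking, and basement membrane partners also reach below 0 (Col23a1, Adamts14 and Lamc1).

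Promoter windows of 250 bases before the start were found for 8 of the 10 genes in the RefSeq table (GRCm38.p6). Col3a1 and Col5a1 are printed because they were close in pattern over the libraries (0.34) but have unlike windows. Col3a1 had 0 counts in all controls, so this likeness rests on the ruxolitinib pools and the prior count of 0.5. The capitals mark the motifs found: TATAAA in Col3a1 and the GC box (GGGCGG or its complement CCGCCC) in Col5a1.
Col3a1, chr1:45311288-45311537 (+): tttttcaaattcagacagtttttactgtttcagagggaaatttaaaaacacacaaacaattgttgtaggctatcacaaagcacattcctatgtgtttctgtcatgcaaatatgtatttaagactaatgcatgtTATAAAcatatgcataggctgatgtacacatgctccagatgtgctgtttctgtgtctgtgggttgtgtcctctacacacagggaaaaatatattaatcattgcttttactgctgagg
Col5a1, chr2:27886175-27886424 (+): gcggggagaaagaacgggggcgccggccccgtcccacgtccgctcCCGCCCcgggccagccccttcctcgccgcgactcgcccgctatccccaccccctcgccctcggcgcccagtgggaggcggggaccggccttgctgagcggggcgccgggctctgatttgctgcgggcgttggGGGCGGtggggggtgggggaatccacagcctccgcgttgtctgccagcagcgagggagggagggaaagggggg
The Col3a1 window is 35.2% G and C, with the first base of TATAAA 117 bases before the start, and the Col5a1 window is 76.4%, beside a median of 52.4% over all windows. On both strands, 1 of the 8 genes had TATAAA, 3 had CCAAT and 4 had GGGCGG. The windows of the 3 genes with CCAAT (Col1a2, Col4a1 and Col4a2) overlap annotated exons. So do those of Col6a1 and Sparc and 1 window of Col6a2. The 8 genes had 9 windows because Col6a2 has more than 1, so these counts are per gene and the shares that follow are per window. Of 32851 windows of the same length, 12.4% held TATAAA, 33.8% CCAAT and 32.7% GGGCGG. A match describes the letters of these windows and is not evidence of a bound site.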

How the data were processed

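The authors deposited raw counts per gene, as whole numbers that were not normalised. Alignment used HISAT2 2.0.5 against mm10, per the submitters' processing notes; for the counting program and its strand setting nothing is stated in the sources used here. Per the labels' protocols, the library kit for the total RNA was NEBNext Ultra II. Groups came from the labels. The test was that of edgeR 4.0.16 under R 4.3.3 (groups in filterByExpr, TMM, robust glmQLFit, glmQLFTest), with Benjamini-Hochberg adjusted p over all 13480 genes tested and a threshold of 0.05. Since each pool came from separate mice, p-values measure the spread between 3 pools per group. Each SE is the absolute log2 fold change divided by the square root of the test's F statistic, so it restates that statistic. The deposited gene length was the union of annotated exons in GENCODE M21. Scripts were tested on simulated data in which changes were planted only in well-counted genes, so changed genes with few control reads were not covered.

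The members and all gene lists were chosen with earlier results of these data known. Named genes are the 10 members and, from each pathway list, the 3 called genes with the smallest p, the most abundant called gene and up to 3 called genes against the majority, with the 2 most abundant genes of each cell type list and the 8 tested genes of at least 1 CPM most alike in pattern. The results of some genes that this rule takes are left out. Alternatives were RLE factors, no filter, DESeq2 1.42.0, a minimum of 1 CPM in 3 libraries, haemoglobin genes removed, limma-voom (limma 3.58.1), scaling to 17 CD8 T cell genes, and leaving out each pool.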

Additional observations from a re-analysis of the deposited data

How the results depend on the processing

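The 10 matrix genes were higher with ruxolitinib in all 130 values from 13 alternatives, and the number called stayed at 10 in each; this is no independent support, since the genes were chosen on this comparison. Scaling to the CD8 T cell genes gave 9357 genes higher and 65 lower, 13 higher in each of the endoplasmic reticulum and TGF-beta lists, and log2 fold changes of 5.71 to 9.04 for the members, against a median of 1.99 over all genes. It also turned P4hb to 1.31, Plod2 to 0.12, Adamts14 to 0.33 and Lamc1 to 0.95. Without a filter on low counts, 8 other collagen genes were called higher and the median of all genes was 0.33. Leaving out 1 pool gave 3 (without control pool 5) to 7 (without control pool 6) other collagen genes higher, 3444 to 4482 of all genes higher and 2306 to 3831 lower. The fitted value of Col3a1, which has no control counts, was 5.67 with limma-voom. For the 26 pathway genes that the naming rule takes, alternatives were added after the data were seen: of 338 values, 323 kept their direction and side of the threshold, 11 missed the threshold and 4 turned. The cause of these changes was not tested. Control counts of 0 to 24 per gene and pool limit the precision of the members' fold changes. No paired analysis was possible because the groups share no pool numbers.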
